A study of Canis lupus familiaris with 22 samples.

Results

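The comparison set malignant mammary tumours of dogs labelled as carcinoma against the 2 malignant tumours labelled as something else. Of the 22 single-colour Agilent arrays of the series, the 12 arrays of the 6 dogs with a malignant tumour were used, chosen by array title and by the histology tied to each dog number. Dog 1 was labelled tubuloacinar solid carcinoma, dog 2 papillary and squamous mixed carcinoma, dog 4 squamous cell carcinoma and dog 5 lipid rich carcinoma, which gives 8 arrays. Dog 3 was labelled malignant myoepithelioma and dog 6 fibrosarcoma, which gives 4 arrays. RNA came from whole tumour tissue, and the a and b arrays of a dog are labelled duplicates, so the dog was the unit (4 carcinomas against 2 non-carcinomas). The 6 arrays of 3 dogs with a benign tumour and the 4 arrays of 2 healthy dogs are given as reference levels. Each non-carcinoma histology is 1 animal, a histology is linked to its arrays by that number alone, and age and breed are not given in the sources used here.

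A mammary duct has an inner layer of luminal epithelial cells, which carry keratin 19 and E-cadherin and make the milk proteins, and an outer layer of contractile myoepithelial cells, which carry keratin 14. Fibroblasts around the duct lay down collagens, proteoglycans and tenascin. Carcinomas arise from epithelium and fibrosarcomas from fibroblasts, and dog mammary tumours with a myoepithelial part are known for myxoid and cartilage-like matrix. The comparison asks how far epithelial, myoepithelial and stromal genes differ between the carcinomas and the other tumours.

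Levels are log2 intensities minus the 75th percentile of the non-control spots of the same array, averaged over the a and b arrays of a dog. A level of 0 is thus that percentile, and 1 unit is a doubling. The floor of an array is the 99th percentile of its 153 negative control spots, and a gene was tested where it stood above the floor on both arrays of at least 1 of the 6 dogs. This left 28338 of 36619 genes, 1275 of them with a symbol. The signal over background differed between dogs: the 75th percentile stood 7.23 and 7.29 times above the median negative control spot on the arrays of dog 3, 12.9 to 15.3 times on those of dogs 4 and 5, up to 12.6 times on those of dog 6, and 22.9 to 27.6 times on those of dogs 1 and 2. The floor lay at -2.42 and -2.53 in dog 3 and between -3.89 and -2.81 on the other arrays, so a weak gene has less room to read low in dog 3. The a and b arrays of a dog correlated across probes with r from 0.993 to 0.998. Bright corner control spots read 28287 to 70957 on the arrays of dogs 1 to 4 and 7177.25 to 15573.25 on those of dogs 5 and 6, so each of these sets of arrays holds dogs of both groups, and key differences are also given within a set. Slides are known for 9 of the 12 arrays, and dog 3 shared a slide with dog 4 (a arrays) and with dog 2 (b arrays). The healthy glands carried pancreas genes, CPB1 at 10.00 and 7.10 and CLPS at 9.92 and 8.73, which limits them as a reference.

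Among keratin genes, KRT19 and KRT14 were low in dog 5, labelled carcinoma, and high in dog 6, labelled fibrosarcoma. The milk protein genes CSN2 and LALBA were high in dog 6, and matrix genes went both ways. KRT19, the keratin of simple epithelium, stood at 4.99, 6.0, 6.14 and -2.57 in dogs 1, 2, 4 and 5, at 1.09 in dog 3 and at 6.01 in dog 6. The dog labelled lipid rich carcinoma thus had less KRT19 than any other malignant tumour, and the dog labelled fibrosarcoma had as much as the high carcinomas. CSN2, the milk protein beta-casein, stood at -0.18, 8.16, -3.58 and -1.93 in dogs 1, 2, 4 and 5, at -2.55 in dog 3 and at 8.73 in dog 6. VIM, the intermediate filament of mesenchymal cells, stood at 5.52, 6.48, 5.08 and 8.33 in dogs 1, 2, 4 and 5, at 7.26 in dog 3 and at 6.80 in dog 6. Beta-casein was high in the dog labelled fibrosarcoma and in dog 2, and vimentin was highest among the 6 in dog 5. Among matrix genes dog 5 had the least COL1A1 (0.73) and COL1A2 (3.81), the genes of type I collagen, and the most TIMP2 (5.91), an inhibitor of matrix metalloproteinases. Dog 6 stood above every carcinoma in 11 of 20 matrix genes, against 33.7% of all genes, but below dogs 1, 2 and 4 in COL1A1 (3.80). Dog 5 was also highest among the 6 in the adipose genes ADIPOQ (3.92 against 0.29 or less), PPARG (5.14 against 0.72 or less) and CD36 (3.66 against 2.84 or less), and the 10 adipose genes tested summed to 67.3 in dog 5 against 4.62 to 24.2 in the other 5. The part of fat cells in the levels of dog 5, and of gland tissue in those of dog 6, was not tested. RNA came from whole tissue, so these levels do not settle whether a label is right. Each tumour is therefore called by its dog number from here on, the groups remain those of the labels, and some results are also given without dogs 5 and 6.

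**Figure D1:**
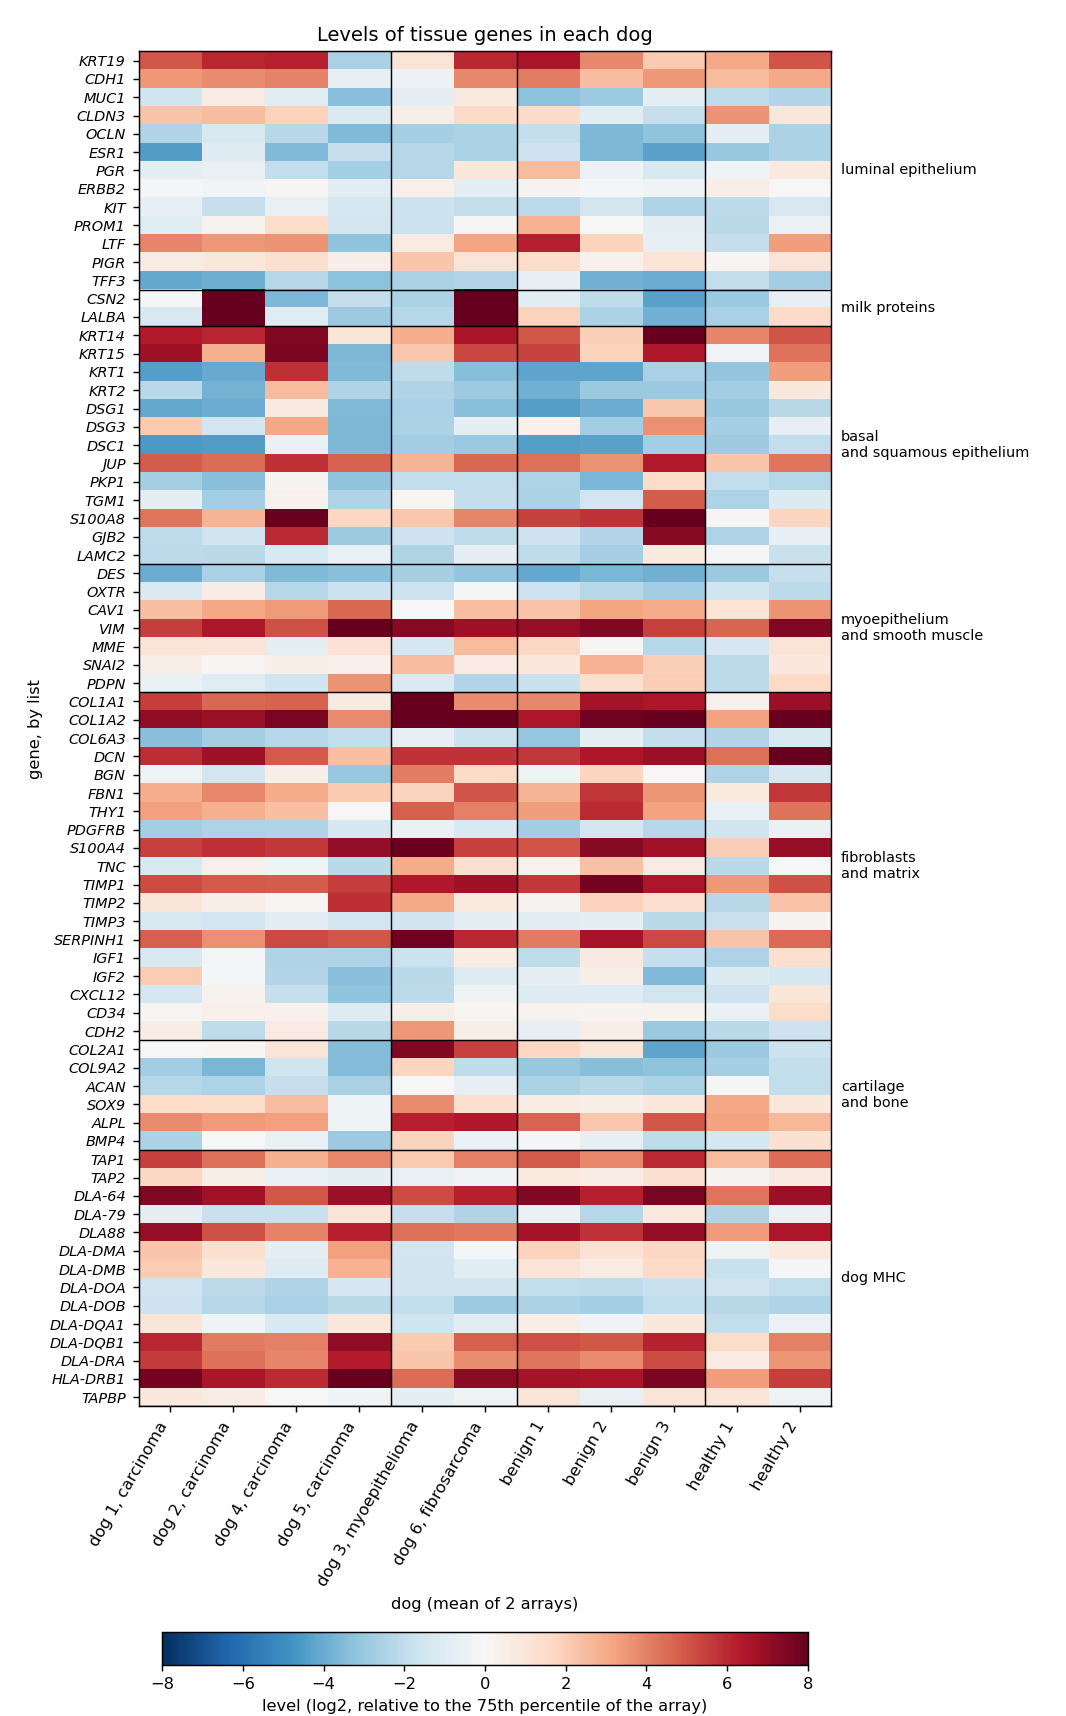
Levels of marker genes (log2, relative to the 75th percentile of each array) in the 4 dogs labelled carcinoma, in dog 3 (myoepithelioma), in dog 6 (fibrosarcoma), in 3 benign tumours and in 2 healthy glands, by list, with levels above 8 drawn in the colour of 8. KRT19 reads 4.99 to 6.14 in dogs 1, 2 and 4, 6.01 in dog 6 and -2.57 in dog 5.

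The correlation between dogs across the genes tested is given as a description, since genes are not independent replicates. Dog 3 had the lowest signal over background, and its part in these values was not tested. Dogs 1, 2 and 4 correlated with each other with r from 0.935 to 0.95, and dog 6 with these 3 dogs with 0.921, 0.936 and 0.943. Dog 5 reached 0.875 to 0.884 with dogs 1, 2 and 4, and dog 3 reached 0.864 to 0.901. Dogs 3 and 6, the non-carcinomas, correlated with 0.897, below the values of dog 6 with dogs 1, 2 and 4. Dogs 5 and 6 correlated with 0.882.

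**Figure D2:**
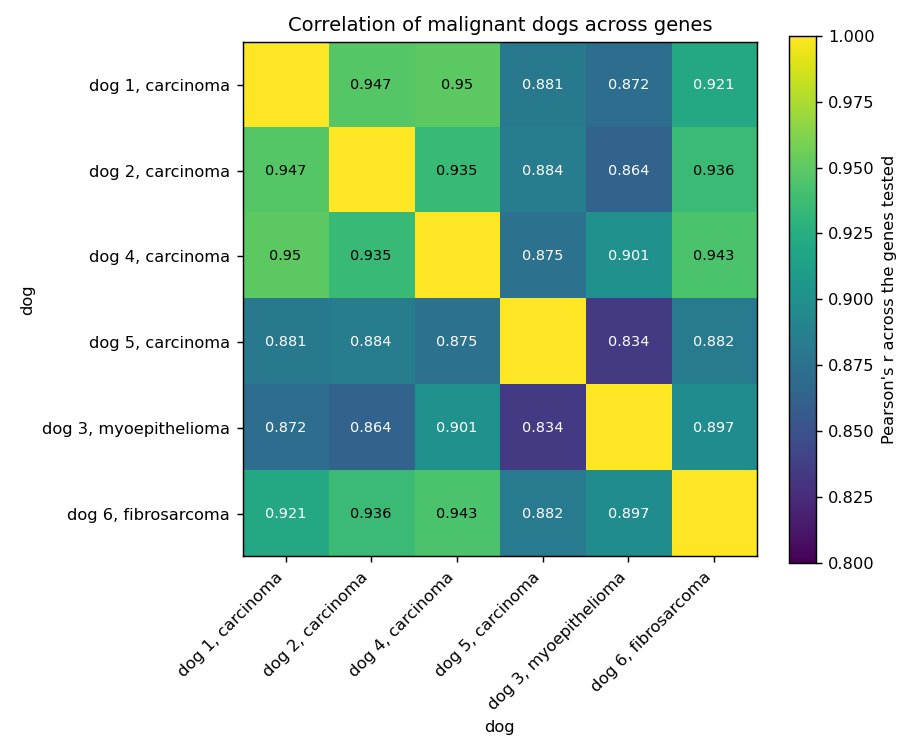
Pearson's r between the 6 malignant dogs across the genes tested, with 1 cell for each pair of dogs. Dog 3 and dog 5 stand apart from the rest (0.834 with each other), while dog 6 correlates with dogs 1, 2 and 4 at 0.921 to 0.943.

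The genes named here differ in level between the groups, and no difference passed the test. BGN, the proteoglycan biglycan, had a mean 15-fold higher in the non-carcinomas (difference 3.90, SE 0.979, n = 4 and 2), and for COL2A1, the collagen of cartilage, the difference was 7.07 (SE 1.1), with dog 5 below the floor. DLA-DRA, a class II chain of the major histocompatibility complex (MHC), had a mean 4.27-fold lower (-2.09). Across all genes limma called 0 of 28338 genes (0%) at an adjusted p of 0.05 or less, with a smallest adjusted p of 0.333. At an unadjusted p of 0.05 or less limma gave 3744 genes (3080 higher and 664 lower) and an unpaired 2-group test 3072, with 0 after Benjamini-Hochberg adjustment. Adjusted or not, these p-values measure only the spread between these samples. An exact permutation test of 4 dogs against 2 cannot give a p below 0.0667.

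The groups did not overlap in a good share of all genes, and that share moved with the scaling. Both non-carcinomas stood above every carcinoma in 7635 genes (26.9%) and below every carcinoma in 1349 (4.76%). The median gene was 0.49 higher in the non-carcinomas with the 75th percentile and 0.05 higher with the array median in its place, where the counts became 3337 (11.8%) and 3315 (11.7%). With a common floor they were 3775 (13.3%) and 1675 (5.91%). Both non-carcinomas also had lower signal over background than every carcinoma, and its part in these counts was not tested. Lists of genes are therefore given by their median difference relative to the median of all genes tested, called the relative median here. Leaving out dog 6 raised the count above to 13080. The count below became 4026 without dog 6, 2904 without dog 3 and 2075 without dog 4. The count of genes called became 1 without dog 2, 2 without dog 5 and 5 without dog 6, where a lone dog is assumed to vary like the carcinomas. Dogs 5 and 6 were also left out together, after seeing their epithelial and milk gene levels. Dog 3 then stood above dogs 1, 2 and 4 in 14430 of 26140 genes (55.2%) and below them in 4953 (18.9%).

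Luminal epithelial genes overlapped between the groups, but for KIT under some settings. Of 34 genes listed, 13 had a named probe and were tested, and 0 had both non-carcinomas above every carcinoma and 0 below, against 26.9% and 4.76% of all genes. KIT, a receptor of luminal progenitors, stood at -0.68, -1.87, -0.59 and -1.40 in dogs 1, 2, 4 and 5, at -1.70 in dog 3 and at -1.88 in dog 6, and both non-carcinomas were below every carcinoma with the array median, quantile normalization, normexp without an offset or a common floor. CDH1, the E-cadherin of epithelial junctions, stood at 3.48, 3.78, 3.94 and -0.67 in dogs 1, 2, 4 and 5, at -0.45 in dog 3 and at 3.82 in dog 6. CLDN3, a tight junction claudin, stood at 2.28, 2.49, 1.84 and -1.16 in dogs 1, 2, 4 and 5, at 0.44 in dog 3 and at 1.53 in dog 6. E-cadherin and keratin 19 were high in dogs 1, 2, 4 and 6 and low in dogs 3 and 5, so each group held tumours of both levels and the groups overlapped. The difference between non-carcinomas and carcinomas was -0.09 for KRT19 (SE 2.27, 95% interval -5.17 to 4.99, limma adjusted p 0.984) and -0.95 for CDH1 (SE 1.41, 95% interval -4.11 to 2.22, adjusted p 0.699), and 1 of the 3 CDH1 probes gave the opposite sign (0.40). In bulk tissue, fewer luminal cells and less RNA per cell cannot be told apart. On the shared slides dog 3 minus its neighbour was -5.03 and -4.84 for KRT19 and -4.34 and -4.27 for CDH1, while dog 6 minus dog 5 was 8.58 for KRT19 and 4.49 for CDH1. Healthy glands had KRT19 at 3.05 and 5.0, and benign tumours at 6.52, 3.86 and 2.07.

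The relative median of the luminal list was -0.50, and it ranged from -1.27 to 0.04 over the alternatives, so its sign is not fixed. Dog 3 had a summed luminal level of 13.7, in units of the array's 75th percentile, and dog 5 of 4.73, against 67.5, 102, 110 and 98.5 in dogs 1, 2, 4 and 6. The member with the brightest probe was KRT19 in dogs 1, 2, 4 and 6 and PIGR, the receptor that carries antibodies across epithelium, in dogs 3 and 5, where the other 2 PIGR probes were lower in dog 3 than in the carcinomas (-0.25 and -1.16). The progesterone receptor gene PGR stood at 0.88 in dog 6 and between -2.74 and -0.57 in the other 5 dogs. Without dogs 5 and 6, dog 3 minus the mean of dogs 1, 2 and 4 was -4.62 for KRT19 and -4.18 for CDH1, given with no test since dogs 5 and 6 were left out for such levels. Relative to all genes, the list's median was -1.17 and -2.11 on the 2 shared slides and 1.46 for dog 6 minus dog 5.

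Of 3 milk protein genes, CSN2 and LALBA were high in 1 tumour of each group and LTF in 4 tumours. LALBA, the alpha-lactalbumin of milk sugar synthesis, stood at -1.27, 8.06, -0.99 and -2.92 in dogs 1, 2, 4 and 5, at -2.27 in dog 3 and at 8.11 in dog 6. LTF, the iron-binding lactoferrin, stood at 3.90, 3.45, 3.60 and -3.23 in dogs 1, 2, 4 and 5, at 0.68 in dog 3 and at 3.16 in dog 6, with 1 of its probes giving the opposite sign (1.55). Dogs 2 and 6 thus carried the RNA of beta-casein and alpha-lactalbumin, and healthy glands had CSN2 at -2.97 and -0.63, LALBA at -2.59 and 1.5 and LTF at -1.92 and 3.36. The 3 milk genes tested, of 13 listed, summed to 709 in dog 6 and 563 in dog 2, against 0.501 to 16.2 in the other 4. Their relative median of 1.71 ranged from -4.63 to 7.06 over the alternatives. None of the 3 had both non-carcinomas above or below every carcinoma, against 26.9% and 4.76% of all genes.

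Basal and squamous genes ran highest among the 6 in dog 4, the dog labelled squamous cell carcinoma. KRT1, a keratin of cornifying epidermis, stood at -4.42, -4.02, 5.86 and -3.55 in dogs 1, 2, 4 and 5, at -2.04 in dog 3 and at -3.39 in dog 6. GJB2, the gap junction protein connexin 26, stood at 5.94 in dog 4 and between -2.86 and -1.62 in the other 5 dogs. S100A8, a calcium-binding protein of neutrophils and inflamed epidermis, stood at 7.93 in dog 4 and between 1.68 and 4.25 in the other 5. In these 3 genes dog 4 stood well above the other 5 malignant tumours, and 1 benign tumour had as much GJB2 (7.29) and S100A8 (8.57). KRT15, a basal keratin, stood at 6.77, 2.86, 7.51 and -3.62 in dogs 1, 2, 4 and 5, at 2.13 in dog 3 and at 5.37 in dog 6. Of 51 genes listed 13 were tested, none had both non-carcinomas above or below every carcinoma, against 26.9% and 4.76% of all genes, and the relative median was -0.95 (-2.02 to -0.24 over the alternatives). The summed level was 791 in dog 4, 242 in dog 1, 178 in dog 6, 104 in dog 2, 33 in dog 5 and 25.4 in dog 3. JUP, the plakoglobin of desmosomes, stood at 2.69 in dog 3 and between 4.44 and 5.86 in the rest on its brightest probe, but 3 of its 5 probes gave dog 3 a higher level than the carcinomas (0.31, 0.32 and 0.43). Within sets of arrays, the list's median relative to all genes was -1.98 for dog 3 and 0.52 for dog 6.

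Of 8 myoepithelial genes tested, 1 stood above every carcinoma in dog 3, the dog labelled malignant myoepithelioma, and 2 stood below, against 51% and 14.2% of all genes. KRT14, the keratin of basal and myoepithelial cells, stood at 6.32, 6.07, 7.38 and 0.98 in dogs 1, 2, 4 and 5, at 2.89 in dog 3 and at 6.55 in dog 6. Dog 3 had less of it than dogs 1, 2, 4 and 6 and more than dog 5, and the groups overlapped. The difference between non-carcinomas and carcinomas was -0.47 (95% interval -4.06 to 3.13, limma adjusted p 0.876). Dog 3 minus its slide neighbour was -4.53 and -3.23, and dog 6 minus dog 5 was 5.57. The healthy glands had KRT14 at 3.90 and 5.05, and the benign tumours at 4.95, 1.92 and 8.45. Of 36 genes listed only these 8 had a named probe, and the defining contractile genes ACTA2, MYH11, TAGLN and CNN1 were not among them, so the label of dog 3 could not be checked on them.

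The other members of the list went several ways. SNAI2, a transcription factor of basal and migrating cells, stood at 0.49, 0.08, 0.44 and 0.41 in dogs 1, 2, 4 and 5, at 2.46 in dog 3 and at 0.65 in dog 6, so both non-carcinomas were above every carcinoma, though not with the array median. CAV1, the caveolin of membrane pits in smooth muscle and myoepithelium, stood at 2.40, 3.11, 3.42 and 4.57 in dogs 1, 2, 4 and 5, at -0.06 in dog 3 and at 2.38 in dog 6. It was low in dog 3 and lay only just under dog 1 in dog 6, an order lost with 2 of the other background corrections, and its difference was -2.22 (95% interval -3.91 to -0.53, adjusted p 0.333). MME, a peptidase on the myoepithelial surface, stood at -1.41 in dog 3 and 2.53 in dog 6, outside the carcinomas (-0.75 to 1.16) on opposite sides. The oxytocin receptor gene OXTR stood at -1.67 in dog 3 and -0.13 in dog 6, within the carcinomas (-2.26 to 0.62). The relative median of the 8 genes was -0.41 and ranged from -1.56 to 0.05, and the summed level was 135, 171, 214 and 364 in dogs 1, 2, 4 and 5, 168 in dog 3 and 220 in dog 6. VIM or KRT14 had the brightest probe in each dog, and brightness does not rank transcripts of different genes.

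Of the 20 stromal matrix genes tested, of 60 listed, 8 had both non-carcinomas above every carcinoma and 0 below, against 26.9% and 4.76% of all genes, and the other 12 overlapped. The mean was higher in the non-carcinomas for 19 of 20, against 71.9% of all genes, and for 15 of 20 with the array median, where 14916 of 28338 genes had it. None was called. The 8 genes, COL1A2, COL6A3, BGN, TNC, THY1, PDGFRB, TIMP1 and SERPINH1, kept that order under each of the 6 scalings and background corrections tried. The relative median was 0.69 (0.43 to 1.51 over the alternatives), and 1.52 and 1.05 on the 2 shared slides, 2.40 for dog 6 minus dog 5, and 0.77 with the set of arrays as a block.

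Type I collagen has a chain from each of COL1A1 and COL1A2. COL1A2 stood at 7.09, 6.90, 7.62 and 3.81 in dogs 1, 2, 4 and 5, at 9.74 in dog 3 and at 8.07 in dog 6. COL1A1 stood at 5.53, 4.57, 4.74 and 0.73 in dogs 1, 2, 4 and 5, at 8.41 in dog 3 and at 3.80 in dog 6. Dog 3 was above every other tumour in both, whereas dog 6 was above the carcinomas in COL1A2 and below 3 of them in COL1A1, and dog 5 was low in both. The difference was 2.55 for COL1A2 (5.86-fold, 95% interval 0.37 to 4.73, limma adjusted p 0.333) and 2.21 for COL1A1 (SE 1.43, 95% interval -1.0 to 5.41, adjusted p 0.391), and without dog 3 the COL1A1 difference was -0.10 on this brightest probe. The other 3 COL1A1 probes gave dog 6 minus the carcinoma mean as 0.79 to 1.71. Dog 3 minus its slide neighbour was 2.15 and 2.81 for COL1A2 and 3.75 and 3.86 for COL1A1. Healthy glands had COL1A1 at 0.39 and 6.85, and benign tumours at 3.87, 6.66 and 6.48, so dog 3 was above these too. SERPINH1, the chaperone of collagen folding, stood at 4.80, 3.64, 5.25 and 4.94 in dogs 1, 2, 4 and 5, at 7.75 in dog 3 and at 6.01 in dog 6. It was high in both non-carcinomas (difference 2.22, 4.67-fold, 95% interval 0.84 to 3.61, adjusted p 0.333), and the other 2 probes gave 1.04 and 0.98.

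Biglycan and tenascin had the groups apart. BGN stood at -0.43, -1.45, 0.54 and -3.03 in dogs 1, 2, 4 and 5, at 4.12 in dog 3 and at 1.5 in dog 6. TNC, the tenascin of wound and tumour stroma, stood at -1.23, 0.40, -0.42 and -2.17 in dogs 1, 2, 4 and 5, at 2.99 in dog 3 and at 1.34 in dog 6. In both genes dog 3 was highest of the 6, dog 6 followed, and the groups did not overlap. The difference was 3.90 for BGN (95% interval 1.71 to 6.10) and 3.02 for TNC (8.10-fold, 95% interval 1.38 to 4.66), each with an adjusted p of 0.333. Dog 3 minus its slide neighbour was 3.57 and 5.58 for BGN, and dog 6 minus dog 5 was 4.53, with dog 5 below the floor on its b array. Healthy glands had BGN at -2.47 and -1.40, and benign tumours at -0.34, 1.71 and 0.04.

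TIMP1, the inhibitor of matrix metalloproteinases, stood at 5.22, 4.88, 4.87 and 5.55 in dogs 1, 2, 4 and 5, at 6.43 in dog 3 and at 6.81 in dog 6. It was the gene of the 8 in which dog 6 exceeded dog 3, with a difference of 1.49 (2.80-fold, 95% interval 0.54 to 2.43, adjusted p 0.333), and benign tumours reached as high (5.64, 7.64 and 6.48). THY1, a surface protein of fibroblasts, stood at 4.78 in dog 3 and 4.05 in dog 6, against 0.06 to 3.29 in the carcinomas. The receptor gene PDGFRB stood at -0.56 in dog 3 and -1.24 in dog 6, against -2.70 to -1.40. The collagen VI gene COL6A3 stood at -0.64 in dog 3 and -1.72 in dog 6, against -3.36 to -1.96. These 3 were above every carcinoma in both dogs, by a margin in dog 6 that was small in the last 2 genes.

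Other stromal genes overlapped between the groups. DCN, the proteoglycan decorin, stood at 5.91, 6.78, 4.88 and 2.39 in dogs 1, 2, 4 and 5, at 5.77 in dog 3 and at 5.81 in dog 6, and its other probe gave the opposite sign between the groups (-0.23). FBN1, the fibrillin of elastic fibres, stood at 5.03 in dog 6 and 1.75 in dog 3, outside the carcinomas (2.09 to 3.87) on opposite sides. The cadherin gene CDH2 stood at 3.45 in dog 3 and 0.49 in dog 6, against -2.23 to 0.68. TIMP2 stood at 5.91 in dog 5 and between 0.10 and 3.0 in the other 5 dogs. The summed level of the 20 genes was 2010 in dog 3 and 735 in dog 6, against 426, 472, 425 and 617 in dogs 1, 2, 4 and 5. COL1A2 had the brightest probe of the list in each dog but dog 5, where VIM had it, and dog 5 had the least COL1A1, COL1A2, BGN, TNC and THY1 of the 6. The part of fibroblasts in these differences was not tested.

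**Figure D3:**
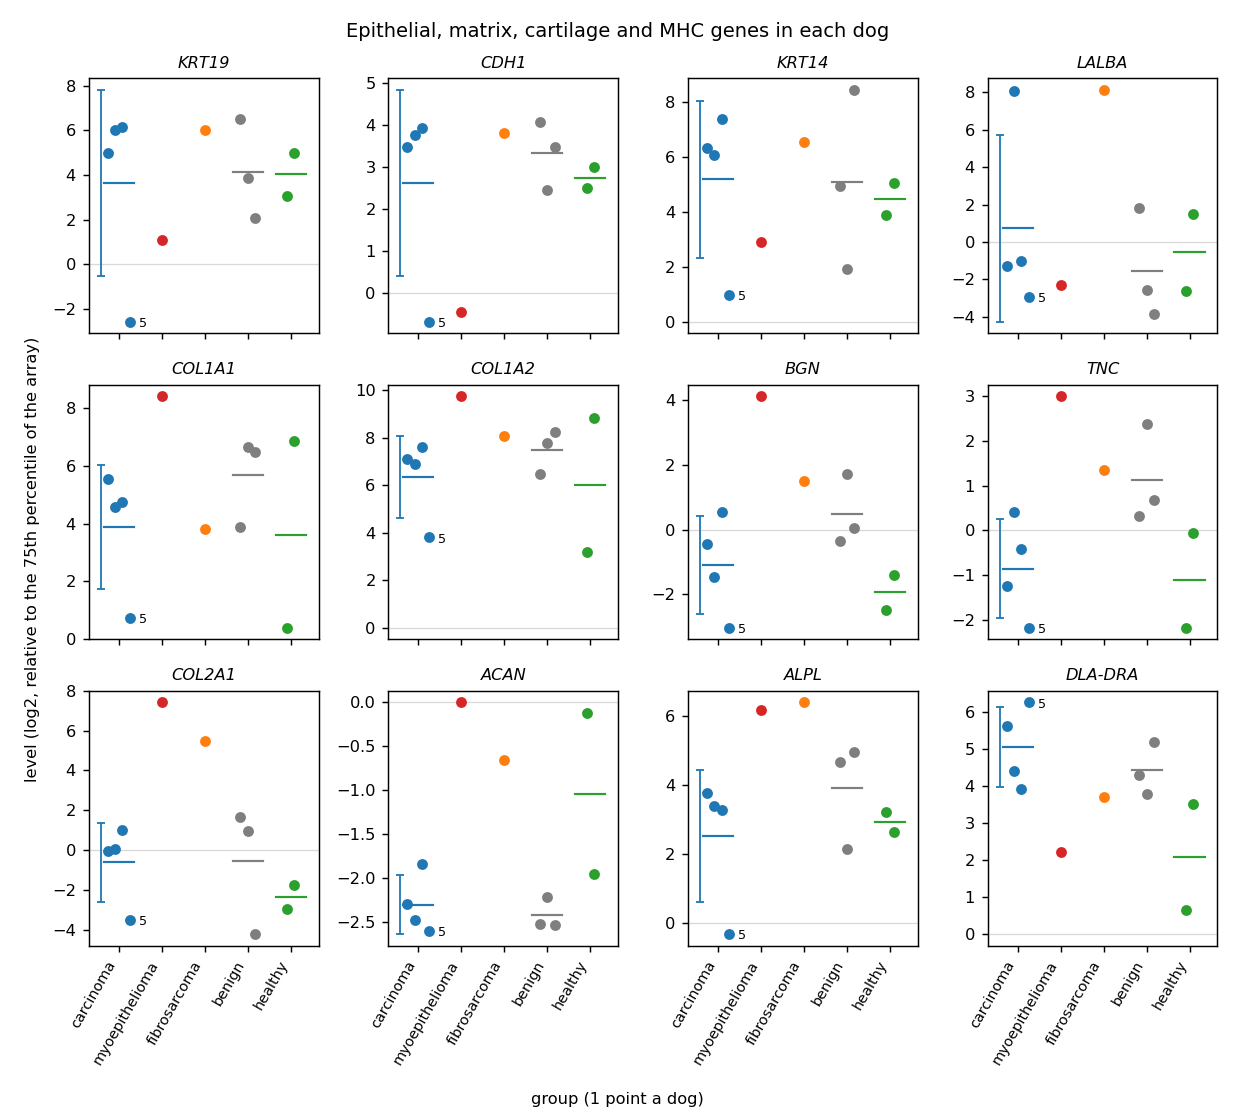
Levels (log2, relative to the 75th percentile of each array) of epithelial, myoepithelial, stromal, cartilage and MHC genes, with 1 point for each malignant, benign or healthy dog, a line at the group mean and a bar of 1 SD for the 4 carcinomas, of which dog 5 is marked. COL2A1 stands at 7.42 and 5.49 in dogs 3 and 6 and at 1.01 or less in the carcinomas, while KRT19 overlaps.

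Of 6 cartilage and bone genes tested, COL2A1, ALPL and ACAN had both non-carcinomas above every carcinoma, as did 26.9% of all genes, the other 3 did not, and none was called. COL2A1 (probe target NM_001006951) stood at -0.03, 0.07, 1.01 and -3.49 in dogs 1, 2, 4 and 5, at 7.42 in dog 3 and at 5.49 in dog 6. Both non-carcinomas were far above every carcinoma, and above healthy glands (-2.98 and -1.75) and benign tumours (1.65, 0.98 and -4.21). The difference of 7.07 had a 95% interval of 4.61 to 9.52 and a limma adjusted p of 0.333, and the other 2 probes gave 4.07 and 4.50. Dog 3 minus its slide neighbour was 6.44 and 7.42, and dog 6 minus dog 5 was 8.98, which is not exact since COL2A1 was below the floor on both arrays of dog 5. With the set of arrays as a block, chosen after seeing the data, the difference was 7.83, and without dog 5 it was 6.11. Both fits passed the threshold, but their p-values are not read. The first rests in part on dog 6 minus dog 5, and the second leaves out the lowest carcinoma. Over all alternatives the difference ranged from 5.21 to 9.09, and 15 of 18 left it not passing, as reported.

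ALPL, the alkaline phosphatase of bone and myoepithelium, stood at 3.79, 3.41, 3.27 and -0.32 in dogs 1, 2, 4 and 5, at 6.19 in dog 3 and at 6.41 in dog 6. ACAN, the aggrecan of cartilage, stood at -2.30, -2.48, -1.84 and -2.60 in dogs 1, 2, 4 and 5, at 0.00 in dog 3 and at -0.66 in dog 6. The non-carcinomas were above every carcinoma in both genes, by 3.76 for ALPL (13.6-fold, 95% interval 1.52 to 6.01) and by 1.97 for ACAN (3.93-fold, 95% interval 1.00 to 2.95), each with an adjusted p of 0.333, and the other 3 ALPL probes gave 1.28 to 1.72. One healthy gland reached the same level of ACAN (-0.12, the other -1.96). SOX9, the transcription factor of chondrocytes, stood at 3.75 in dog 3 and 1.27 in dog 6, against -0.33 to 2.49 in the carcinomas. COL9A2, another cartilage collagen, stood at 1.72 in dog 3 and -2.01 in dog 6, against -3.63 to -1.58. BMP4, a growth factor of bone and cartilage, stood at 1.76 in dog 3 and -0.44 in dog 6, against -2.88 to -0.06. In these 3 dog 3 was above every carcinoma and dog 6 was not.

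All 6 genes tested, of 24 listed, had the higher mean in the non-carcinomas (71.9% of all genes), 3 with both dogs above every carcinoma (26.9% of all genes) and 0 below. The relative median was 1.96 (1.03 to 3.59 over the alternatives), 2.07 and 1.90 on the shared slides and 2.08 for dog 6 minus dog 5. The summed level was 265 in dog 3 and 134 in dog 6, against 18.1, 15.6, 18.6 and 2.07 in dogs 1, 2, 4 and 5. COL2A1 had the brightest probe in dog 3 and ALPL in the other 5 dogs.

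Of 14 MHC genes tested, 3 had both non-carcinomas below every carcinoma, against 4.76% of all genes, and none was called. DLA-DRA, the alpha chain of the class II molecule DR, stood at 5.62, 4.40, 3.90 and 6.25 in dogs 1, 2, 4 and 5, at 2.20 in dog 3 and at 3.70 in dog 6. It was low in dog 3 and a little below the lowest carcinoma in dog 6, with a difference of -2.09 (95% interval -3.69 to -0.50, limma adjusted p 0.333). Dog 3 minus its slide neighbour was -1.64 and -2.22, and dog 6 minus dog 5 was -2.55. Healthy glands had DLA-DRA at 0.66 and 3.52, and benign tumours at 4.30, 3.78 and 5.19. Of the 14, of 25 listed, 13 had the lower mean in the non-carcinomas, where 71.9% of all genes had the higher mean, and the 3 below every carcinoma were DLA-DRA, DLA-79 and TAPBP, a chaperone of peptide loading. The relative median was -1.77 (-2.20 to -1.02 over the alternatives), -1.11 and -2.07 on the shared slides and -1.61 for dog 6 minus dog 5. The summed level was 97.4 in dog 3 and 299 in dog 6, against 678, 300, 151 and 807 in dogs 1, 2, 4 and 5, so that of dog 6 lay within the carcinomas.

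Of 31 myeloid genes tested, of 56 listed, 2 had both non-carcinomas below every carcinoma (6.45%) and 1 above (3.23%), against 4.76% and 26.9% of all genes, and none was called. CXCL8, the neutrophil attractant, stood at 1.56, 0.86, 2.32 and -0.17 in dogs 1, 2, 4 and 5, at -0.37 in dog 3 and at -1.22 in dog 6. CCL4, another chemokine, stood at 4.31, 1.67, -0.52 and -0.10 in dogs 1, 2, 4 and 5, at -1.46 in dog 3 and at -0.79 in dog 6. These were the 2 genes below, a share near that of all genes. The count below was 6 with quantile normalization (19.4%, against 9.02% of all genes) and 4 with normexp without an offset (12.9% against 6.4%). It was 3 with the array median (9.68% against 11.7%). The 1 above was TLR7, which overlapped under these settings and with a common floor. The relative median was -0.59 (-0.80 to -0.20 over the alternatives), and the summed level was 153, 67.8, 58.4 and 108 in dogs 1, 2, 4 and 5, 69.1 in dog 3 and 96.1 in dog 6, with the CCL2 probe the brightest in dogs 2, 3, 4 and 6. The part of these cells in the MHC values was not tested.

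Among matrix metalloproteinases, MMP12, the macrophage elastase, stood at -1.15, -0.61, 0.02 and -0.15 in dogs 1, 2, 4 and 5, at -2.18 in dog 3 and at -2.09 in dog 6. Both non-carcinomas were lower than every carcinoma by a difference of -1.67 (95% interval -2.70 to -0.63, adjusted p 0.333), near healthy glands (-2.56 and -2.79). MMP3, the stromelysin, stood at 3.16 in dog 5, -0.79 in dog 3 and -1.36 in dog 6, and between -4.32 and -3.61 in dogs 1, 2 and 4. MMP9, the gelatinase of neutrophils, overlapped, with 0.54 in dog 3 and -0.56 in dog 6 against -1.64 to 2.03. Of 8 tested, of 17 listed, 1 had both non-carcinomas above every carcinoma (TIMP1) and 1 below (12.5% each, against 26.9% and 4.76% of all genes), and the relative median was -0.41 (-0.71 to -0.19 over the alternatives).

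The remaining lists are given by their relative median, its range over the alternatives, and the genes with both non-carcinomas above every carcinoma, which were 26.9% of all genes. None of their genes was called. Interferon response genes had a relative median of -0.69 (-1.60 to -0.40), with 1 of 11 above every carcinoma in both dogs, and TAP1, the peptide transporter, had the brightest probe in every dog. Endothelial genes had -0.50 (-0.88 to -0.06), with 2 of 15 above, of which NOS3, the endothelial nitric oxide synthase, stood at 2.26 in dog 3 and 1.78 in dog 6 against 0.28 to 0.79, though 1 of its other 3 probes was lower in dog 6 than in the carcinomas (-0.11). Lymphocyte genes had 0.06 (-0.45 to 0.19), with 5 of 18 above, a count that was 2 with the array median, 1 with quantile normalization and 0 with a common floor, where the share of all genes was 11.8%, 11.2% and 13.3%. Adipose genes had 0.12 (-0.09 to 0.43), with 3 of 10 above and 0 with the array median, and PPARG, the regulator of fat cells, stood at 5.14 in dog 5 and between -1.75 and 0.72 in the other 5 dogs. Cell division genes had -0.18 (-0.60 to 0.38), with 0 of 8 above or below, and all 8 stood higher in dog 3 than in the mean carcinoma, as did 71% of all genes. Skeletal muscle genes had 0.11 (-0.13 to 0.50), with 1 of 12 above, MYH8, a fetal myosin, at 0.83 in dog 3 and -2.49 in dog 6 against -3.79 to -2.75. Nerve and melanocyte genes had 0.40 (0.06 to 0.58), with 1 of 7 above. The melanocyte antigen MLANA stood at 3.76 in dog 5, and other melanocyte genes went both ways there. MITF and MC1R were also highest among the 6 in dog 5, PMEL was lowest, and DCT was below dogs 2 and 6. Exocrine pancreas genes had 0.14 (0.00 to 0.34), with 1 of 6 above, and erythroid genes -0.18 (-0.45 to 0.16), with 0 of 2. The summed lymphocyte level stayed between 2.50 and 4.27 in the 6 dogs, and that of the pancreas genes between 1.91 and 4.14. Within their set, dog 6 minus dog 5 turned the sign of several of these relative medians. The value was 0.28 for interferon (11 of 11 genes higher), 0.69 for endothelium, 0.25 for cell division and 0.07 for erythroid genes. It was -0.45 for nerve and melanocyte, -0.20 for pancreas and -0.09 for adipose genes.

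**Figure D4:**
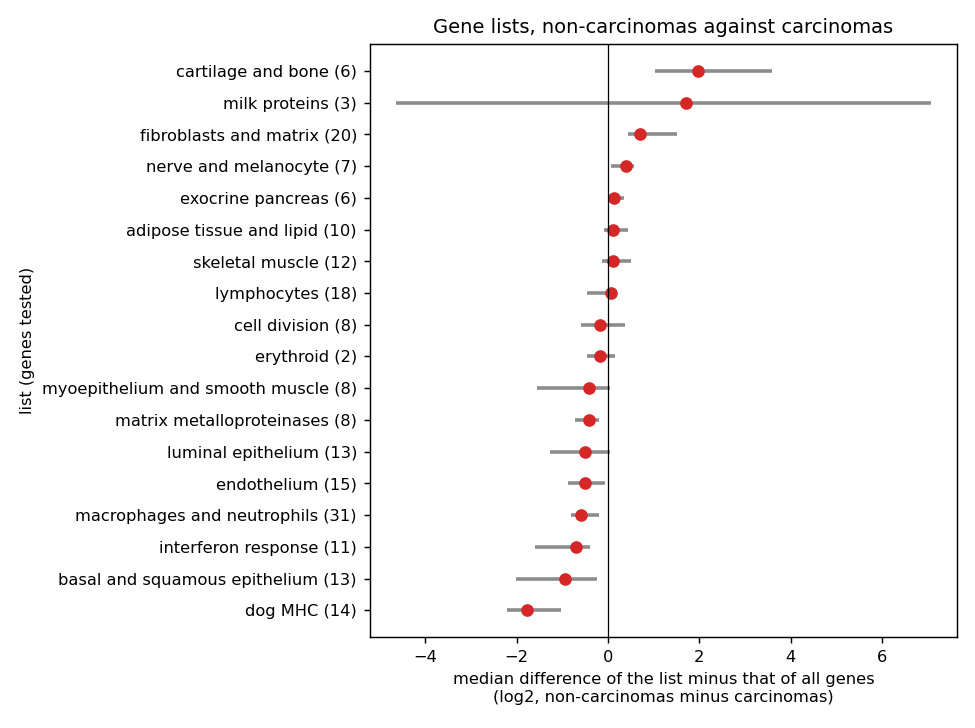
Median difference (log2) between non-carcinomas and carcinomas for each of the 18 lists, relative to the median of all genes tested; the dot is the value reported, the grey bar its range over the alternatives, and the number in brackets the genes tested. Cartilage, matrix and nerve genes lie above 0 over the whole range, and MHC, interferon, basal, myeloid, metalloproteinase and endothelial genes below 0.

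Outside the lists, a few named genes had the groups apart under each of the 6 scalings and background corrections. FGFR2, a receptor for fibroblast growth factors, stood at 0.34, 1.18, 0.58 and -3.21 in dogs 1, 2, 4 and 5, at 3.21 in dog 3 and at 2.54 in dog 6. ALDOC, a glycolytic aldolase, stood at 2.42, 0.42, 2.73 and -0.67 in dogs 1, 2, 4 and 5, at 4.14 in dog 3 and at 3.71 in dog 6. Both were high in the 2 non-carcinomas and lowest among the 6 in dog 5, with differences of 3.16 and 2.70, and the other probes gave 2.07 for FGFR2 and 0.92 and 0.74 for ALDOC. PEBP1, an inhibitor of the RAF kinase, stood at 2.93, 3.25, 2.47 and 3.51 in dogs 1, 2, 4 and 5, at 0.59 in dog 3 and at 1.23 in dog 6, and PLA2G7, an enzyme of macrophages, at 3.56, 1.1, 2.48 and 6.30, at 0.51 and at 0.91. VPS29, a part of the retromer that sorts membrane proteins, stood at 0.01 in dog 3 and 1.38 in dog 6 against 1.92 to 3.60. These 3 were low in both non-carcinomas, by -2.13 for PEBP1 (95% interval -3.16 to -1.10), -2.65 for PLA2G7 and -2.04 for VPS29, and healthy glands (3.11 and 3.41) and benign tumours (3.67, 2.77 and 2.72) had as much PEBP1 as the carcinomas. Each of these genes had an adjusted p of 0.333. Of targets without a symbol, ENSCAFT00000031814 was 6.05 higher, and ENSCAFT00000013432 differed by -4.75 and TC74915 by -3.57.

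Dog 3, the dog labelled malignant myoepithelioma, against the 4 carcinomas had 8 genes called by limma, all higher (0.0282%) and 0 lower (0%), and the calls describe this 1 dog and not its histology, with 3 of the 8 not read below for want of signal in the carcinomas. PTH1R (probe target NM_001003155), the receptor for parathyroid hormone in bone and cartilage, stood at -2.99, -2.65, -3.19 and -3.38 in dogs 1, 2, 4 and 5, at 3.76 in dog 3 and at -1.40 in dog 6. HOTAIR, a long noncoding RNA of the HOXC cluster, stood at -2.27, -2.54, -2.55 and -2.72 in dogs 1, 2, 4 and 5, at 3.14 in dog 3 and at -1.50 in dog 6. NEFH, a neurofilament, stood at -4.01, -4.14, -3.76 and -3.48 in dogs 1, 2, 4 and 5, at 1.87 in dog 3 and at -3.34 in dog 6. All 3 were higher in dog 3 than in any other malignant tumour, and they were the named genes among the 8. With 3 groups and 3 residual degrees of freedom, the lone dog is assumed to vary like the carcinomas, and the errors and p-values hold no spread of its own.

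PTH1R was 6.81 higher in dog 3, and 7.0 and 6.30 higher on the shared slides. The gene stood above the floor on 4 of 8 carcinoma arrays, so the size is not exact and the spread of the carcinomas is in part that of background. HOTAIR, above the floor on all 12 arrays, was 5.66 higher (50.5-fold, adjusted p 0.0284), though 1 healthy gland (1.48, the other -2.06) and 1 benign tumour (1.97, the others -2.79 and -2.84) also carried it. NEFH was below the floor on all 8 carcinoma arrays and at least 38-fold higher in dog 3. Of the called targets without a symbol, ENSCAFT00000015179 stood at 5.11 in dog 3, at -0.46 in dog 6 and at -3.02 or less in the carcinomas, with 1 of 8 carcinoma arrays above the floor, and ENSCAFT00000017849 was at least 209-fold higher in dog 3. NEFH and ENSCAFT00000017849 entered the test through dog 3 alone and ENSCAFT00000015179 through dogs 3 and 6, where they are high, so nothing is read from their p-values. Among genes above the floor on all 12 arrays limma called 0, with an adjusted p of 0.0884 for HOTAIR. Over the alternatives the highest adjusted p was 0.238 for PTH1R and 0.229 for HOTAIR. At an unadjusted p of 0.05 or less limma gave 4459 genes and an unpaired 2-group test 3981, with 0 after Benjamini-Hochberg adjustment. The count of 8 became 0 without dog 1, 3 without dog 2, 1 without dog 4, 878 without dog 5 and 5 without dog 6.

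Dog 3 stood above every carcinoma in 14440 genes (51%) and below in 4019 (14.2%), with a median difference of 0.66 over all genes. All 6 cartilage and bone genes were above every carcinoma in dog 3, and 12 of 20 matrix genes, against 51% of all genes. None of these passed the test, with differences of 8.03 for COL2A1 (adjusted p 0.123), 5.21 for BGN (adjusted p 0.176), 4.60 for COL9A2 (adjusted p 0.119) and 4.51 for COL1A1 (adjusted p 0.28). The sizes for COL9A2 and COL2A1 are not exact, with 4 and 6 of 8 carcinoma arrays above the floor. Over the alternatives in this contrast, the highest adjusted p was 0.361 for COL2A1 and 0.36 for BGN. CA3, the carbonic anhydrase of muscle and fat, stood at 2.83 in dog 3 and between -4.50 and 0.93 in the other 5 dogs, and NCAM1, an adhesion molecule of nerve and muscle, at 2.89 against -2.07 to 0.91.

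Among named genes in which dog 3 lay below every carcinoma, those with the largest negative differences did not pass the test. CAV2, the partner of caveolin 1, stood at 2.0, 2.49, 2.84 and 4.13 in dogs 1, 2, 4 and 5, at -1.12 in dog 3 and at 2.05 in dog 6 (difference -3.99, adjusted p 0.148). CAT, the catalase that breaks down peroxide, stood at 3.32, 4.60, 2.89 and 4.25 in dogs 1, 2, 4 and 5, at -0.09 in dog 3 and at 3.15 in dog 6 (difference -3.85, adjusted p 0.142). GLUL, the glutamine synthetase, stood at 2.24, 3.55, 2.87 and 4.22 in dogs 1, 2, 4 and 5, at -0.13 in dog 3 and at 2.69 in dog 6 (difference -3.35, adjusted p 0.181). In all 3 dog 3 was far below the rest, and dog 6 lay within the carcinomas. CAV1 differed by -3.44 (adjusted p 0.181) and DLA-DQB1, an MHC class II chain, by -3.23 (adjusted p 0.283), and the cytokine gene IL33 (-3.19), the pantetheinase gene VNN1 (-3.03, 1 probe opposite) and DLA-DMA (-3.0) followed. In the MHC list 9 of 14 genes were below every carcinoma in dog 3 and 4 of 14 in dog 6, against 14.2% and 10.2% of all genes.

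Dog 6, the dog labelled fibrosarcoma, against the 4 carcinomas had no gene called by limma (0%, smallest adjusted p 0.165), and CSN2, LYZF2, LALBA, CES1 and COL2A1 had its largest differences among named genes. CSN2 and LALBA were higher than in every carcinoma, though dog 2 came close. LYZF2, a lysozyme, stood at -2.05, 3.99, -2.53 and -2.71 in dogs 1, 2, 4 and 5, at -2.64 in dog 3 and at 6.61 in dog 6. CES1, a carboxylesterase, stood at 1.43, 6.42, 2.18 and -2.55 in dogs 1, 2, 4 and 5, at 2.22 in dog 3 and at 8.13 in dog 6. Dogs 2 and 6 were again the high tumours, and CES1 was as high in a healthy gland (7.89, the other -1.66) and 2 benign tumours (7.72 and 7.39, the other 1.56). The differences were 8.11 for CSN2, which is not exact with 6 of 8 carcinoma arrays above the floor, 7.43 for LYZF2 (173-fold), 7.39 for LALBA and 6.26 for CES1, and COL2A1 differed by 6.10, with an adjusted p of 0.89 for CSN2 and COL2A1.

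Other genes were high in dog 6 and not in dog 2. F11, the clotting factor XI, stood at -1.75, -1.83, -2.90 and -0.51 in dogs 1, 2, 4 and 5, at -1.87 in dog 3 and at 2.88 in dog 6 (difference 4.63, adjusted p 0.533). GH1, the growth hormone that mammary tissue of dogs can make, stood at -3.34, -2.26, -3.16 and -3.58 in dogs 1, 2, 4 and 5, at -2.61 in dog 3 and at 0.90 in dog 6 (adjusted p 0.44), with 4 of 8 carcinoma arrays above the floor and no exact size. DMD, the dystrophin of muscle, stood at 0.55, 1.70, 1.58 and 0.90 in dogs 1, 2, 4 and 5, at -0.60 in dog 3 and at 4.35 in dog 6 (difference 3.17, adjusted p 0.864), and the other probes of DMD gave 0.79 to 2.97. Each was higher in dog 6 than in the other 5 malignant tumours, though 1 healthy gland had more GH1 (2.10) and 1 benign tumour came near in F11 (2.51). DIO2, a deiodinase of thyroid hormone, stood at 2.61 in dog 6 and at 0.26 or less in the other 5, with 1 benign tumour at 2.01. The difference ranged over the alternatives from 3.39 to 5.08 for F11 and from 2.0 to 3.45 for DMD. With the set of arrays as a block, dog 6 is set against dog 5 alone, 1 dog of each group. The p-values of that fit are therefore not read.

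RAN, the GTPase of nuclear transport, stood at 1.71 in dog 6 against 3.71 to 4.69 in the carcinomas, and dog 3 (3.0) was also below them. CYP2C18, a cytochrome, stood at -0.64 in dog 6 against 0.78 to 2.97, where the other probe gave the opposite sign (0.64). The scavenging chemokine receptor gene ACKR3 stood at -1.06 against -0.51 to 3.26, and PDPN, the podoplanin of lymphatic and myoepithelial cells, at -2.35 against -1.58 to 3.61. In dog 6 all 4 lay below the lowest carcinoma, as did LOC609402 (-0.51 against 1.01 to 6.91), the first of these named genes by size (difference -3.67). The target TC78091 stood at 4.70, 4.88, 6.08 and 4.27 in dogs 1, 2, 4 and 5, at 6.32 in dog 3 and at 0.25 in dog 6 (difference -4.73, adjusted p 0.391).

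Dog 6 stood above every carcinoma in 9540 genes (33.7%) and below in 2901 (10.2%), with a median difference of 0.34. In the matrix list 11 of 20 genes were above every carcinoma in dog 6, with a relative median of 0.79. At an unadjusted p of 0.05 or less limma gave 956 genes and an unpaired 2-group test 918, with 0 after Benjamini-Hochberg adjustment, and the count of 0 became 10 without dog 2 and 40 without dog 5. The contrasts of dogs 3 and 6 share the same 4 carcinomas and are not independent of each other.

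**Figure D5:**
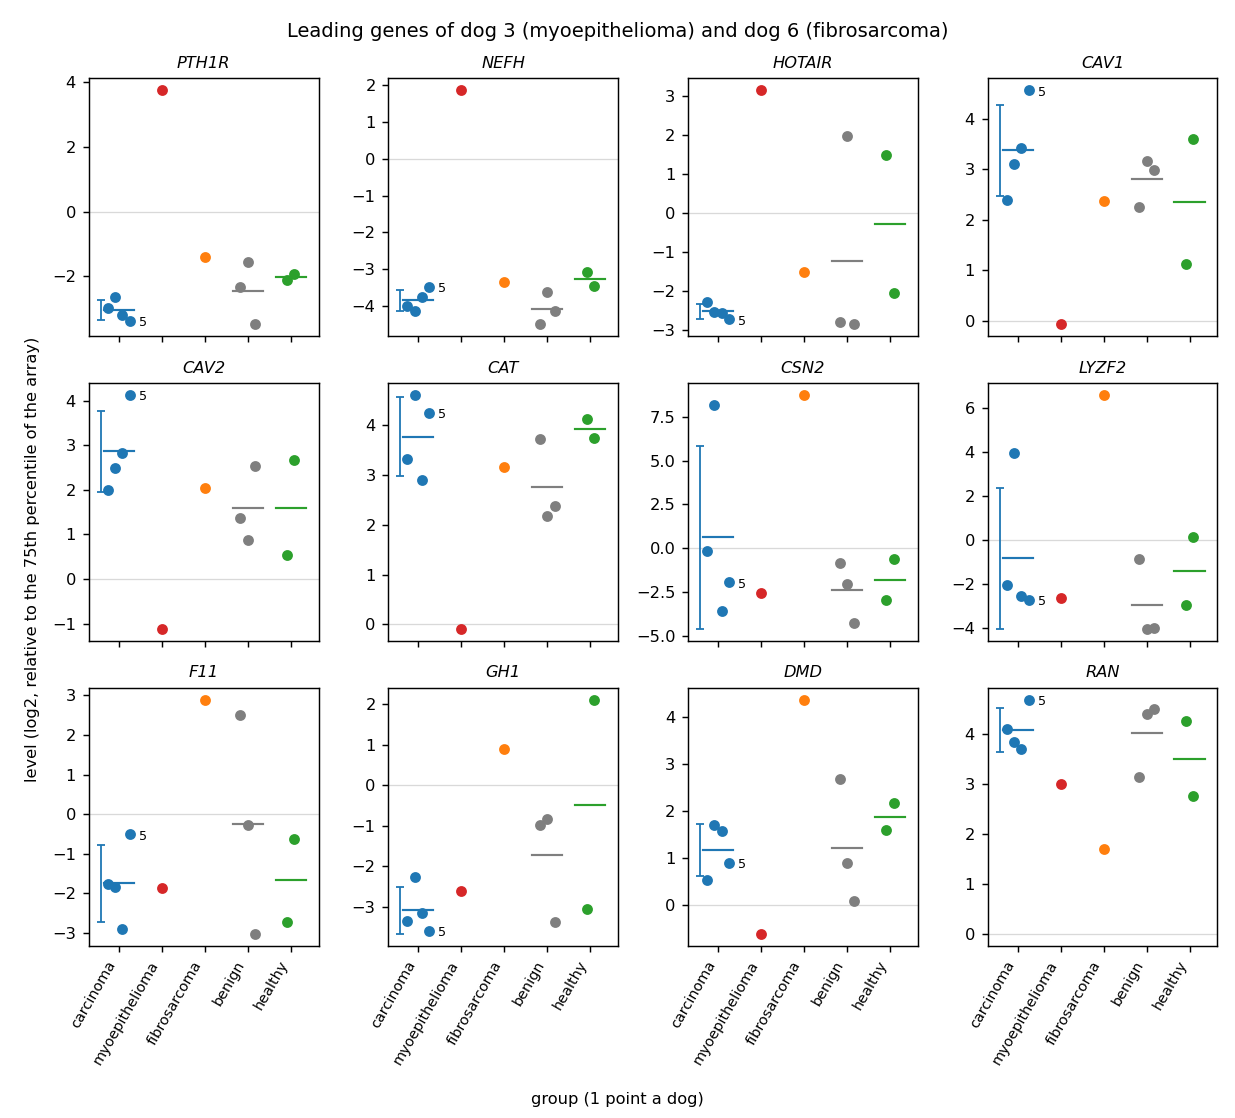
Levels (log2, relative to the 75th percentile of each array) of leading genes of dog 3 and of dog 6, with 1 point for each malignant, benign or healthy dog, a line at the group mean and a bar of 1 SD for the 4 carcinomas. PTH1R stands at 3.76 in dog 3, -1.40 in dog 6 and -2.65 or less in the carcinomas.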

How the data were processed

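Total RNA of 22 mammary samples was hybridised to single-colour Agilent canine arrays. The deposited values are median spot intensity without background subtraction, as the authors' scanner software wrote it. The sample notes give that software as Agilent Feature Extraction 11.5.1.1, and the paper's methods name another version. The deposited values equal the scanner's median intensity in all 45220 spots of each of the 9 malignant arrays that have a scanner file. After 1417 control spots were left out, values were taken as log2 and set relative to the 75th percentile of their own array, spots of a probe (43603 probes, 50 with several spots) and then the a and b arrays of a dog were averaged, and the brightest probe stood for each gene. Probe targets came from the scanner files by feature number. Only 2353 probes carry 1 of 1458 symbols.

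R 4.3.3, limma 3.58.1 and the package data.table (version 1.17.8) were used. Groups of 4 and 2 dogs, and dogs 3 and 6 alone against the carcinomas, were fitted with limma across all genes tested, with Benjamini-Hochberg adjusted p of at most 0.05 as the threshold. Named genes are members of 18 gene lists and, for each contrast, the 8 leading named genes in each direction among those called or, where fewer were called, among those in which the dogs do not overlap with the carcinomas and which stood above the floor on both arrays of at least 2 dogs. At most 2 targets without a symbol were taken in a direction. Members and lists were chosen with earlier results of these data known. Alternatives covered scaling, background, filter, probe summary, arrays used, the block for dog, slide or set of arrays, and leaving out dogs.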

Additional observations from a re-analysis of the deposited data

Results flagged for a closer look

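Of 60 genes tested for a dog far from the other 3 carcinomas (Dixon's criterion at 95%), 4 had one, 3 in dog 5 and 1 in dog 2. Chance gives about 1 in 20 groups, and 4 of 60 is near that rate. The 60 genes were chosen with results of these data known. Dog 5, labelled lipid rich carcinoma, had KRT19 at -2.57, where the other carcinomas stood between 4.99 and 6.14. Dog 5 had CDH1 at -0.67, where the others stood between 3.48 and 3.94. Dog 5 had ALPL at -0.32, where the others stood between 3.27 and 3.79. Dog 2 had the lysozyme gene LYZF2 at 3.99, where the others stood between -2.71 and -2.05.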

How the results depend on the processing

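Of 31 genes followed between carcinomas and non-carcinomas, 27 kept their direction under every alternative run, and 558 of 585 values kept direction and side of the threshold, 15 newly passed it and 12 turned. In the contrast of dog 3, 372 of 472 values did so for 20 genes, 33 no longer passed and 67 newly passed. In that of dog 6, 348 of 373 did so for 18 genes and 25 newly passed. No paired analysis was possible because carcinoma and non-carcinoma dogs share no number, so the paired test of the study and its correction were not run. Signal over background was lowest in dog 3, and in dog 6 it was also below that of every carcinoma, which limits statements on weak genes. The common floor, normexp without an offset, the set of arrays as a block, the leaving out of dogs 5 and 6, and the alternatives for the counts of genes without overlap and for the contrasts of dogs 3 and 6 were chosen after seeing the data.

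Genes called between carcinomas and non-carcinomas, 0 as reported, numbered 33 with 12 arrays and the dog as a random block, 3072 by an unadjusted, unpaired 2-group test, 14423 with the slide as a random block on 9 arrays, 354 without dogs 5 and 6, 10 with the set of arrays as a block, and 0 to 5 with 1 dog left out. The fits on 12 and on 9 arrays count the duplicate arrays of a dog as replicates, the 9 arrays hold none of dog 6, and an unadjusted test passes more genes by construction.

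Genes called for dog 3, 8 as reported, numbered 2 with the array median, 5 with quantile normalization, 0 with the scanner's processed signal, 188 with no filter, 0 with genes above the floor on all 12 arrays, 85 with a floor at the 95th percentile, 14 with the mean over probes, 60 with all 11 dogs in the fit, 30 with a arrays, 15 with b arrays, 625 with the dog as a random block, 77 with trend and robust settings, 0 by an adjusted and 3981 by an unadjusted, unpaired 2-group test, 14423 with the slide as a block (on 9 arrays, duplicates counted), 1216 with a common floor (502 of them with all carcinomas set to the floor), 0 with normexp without an offset, 354 without dogs 5 and 6, 988 with the set of arrays as a block, and 0 to 878 with 1 dog left out.

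Genes called for dog 6, 0 as reported, numbered 10 with no filter, 5 with the floor at the 95th percentile, 27 with the dog as a random block, 8 with trend and robust settings, 918 by the unadjusted 2-group test, 212 with a common floor (130 with all carcinomas set to the floor), 640 with the set of arrays as a block, and 0 to 40 with 1 dog left out.

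Genes with both non-carcinomas above every carcinoma, 7635 as reported, numbered 3337 with the array median, 3178 with quantile normalization, 14392 with no filter, 3124 above the floor on all 12 arrays, 11481 with the floor at the 95th percentile, 3775 with a common floor, 4521 with normexp without an offset, 14430 without dogs 5 and 6, and 8006 to 13080 with 1 dog left out. Genes below every carcinoma, 1349 as reported, numbered 3315 with the array median, 2557 with quantile normalization, 6099 with the scanner's processed signal, which is there for dogs 1 to 5 alone, 4953 without dogs 5 and 6, and 1629 to 4026 with 1 dog left out. A filter changes the genes tested, and fewer dogs leave fewer values to overlap. For the other changes the cause was not tested.

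The relative median of the myoepithelial list, -0.41 as reported, was -1.56 with the scanner's processed signal, -1.04 without dogs 5 and 6, and -1.52 to 0.05 with 1 dog left out. That of the matrix list, 0.69 as reported, was 1.51 with the processed signal. The KRT19 difference, -0.09 as reported, was 0.16 with a common floor, 0.17 with normexp without an offset, 0.66 with the set of arrays as a block, and -2.55 to 2.37 with 1 dog left out. With 1 dog left out the CDH1 difference ran from -3.08 to 1.19, that of KRT14 from -2.30 to 1.37 and that of COL1A1, on its brightest probe, from -0.10 to 4.51, and KRT14 stood at 0.01 with the set of arrays as a block. The highest values of KRT19, CDH1 and KRT14 and the lowest of COL1A1 came without dog 3. The cause was not tested.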
